A study of Mus musculus with 5 samples.

Results

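The regions described here are those at 10 transcription factor genes, grouped here as amacrine and horizontal fate factors of the retina: Onecut1, Onecut2, Onecut3, Tfap2a, Tfap2b, Prox1, Lhx1, Foxn4, Dlx1 and Dlx2. They come from CUT&Tag with an antibody to Pou4f1, a POU-homeodomain factor of retinal ganglion cells (RGCs), in whole retinas of mouse embryos (wild type, E16.5). A region was taken when any of its bases lay in the body of 1 of these genes or within 50 kb of it. Of the 8038 regions in the deposited table, 9 did so, at 7 of the 10 genes. No region was found for Tfap2a, Tfap2b or Foxn4. The rule uses gene names and positions and no signal, although the genes were listed with earlier results of these data known.

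In CUT&Tag an antibody on chromatin tethers a Tn5 transposase, which cuts and tags the DNA beside it. Each library was made from 4 pooled retinas, so a value is an average over every cell of the retina, and cells with Pou4f1 cannot be told from cells without it. Pou4f1 libraries (n = 2) were compared with libraries made with rabbit IgG (n = 2), all of the same wild-type genotype and stage. The table names 1 of these as IgG and the other only as a negative control, without saying IgG. The latter was taken as IgG, the only negative control of the study. The H3K9AC library (n = 1) was not analysed here. All values below are the deposited signal of a region, which is never negative. They hold no RNA, so neither the expression of these genes nor the makeup of the tissue could be checked.

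Amacrine and horizontal cells are the interneurons of the inner and outer retina, and they arise from the same progenitor pool as RGCs. Foxn4, a forkhead factor of progenitors, opens the path to both interneuron types. Onecut1 and Onecut2 (cut-homeodomain factors), Prox1 (a prospero homeobox factor) and Lhx1 (a LIM-homeodomain factor) act in horizontal cells, and the AP-2 factors Tfap2a and Tfap2b act in amacrine and horizontal cells. Dlx1 and Dlx2 are a pair of neighbouring homeobox genes with known roles in neurons, among them the differentiation of RGCs.

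Some of the sequences under these regions are shown first, because they differ in base composition and in the presence of a POU site. Positions are those of mm10, counted from 1, and the letters were read from GRCm38.p6. In the stretch of Dlx1, capitals mark a full match to the POU-domain consensus, and an overlapping match with 1 mismatch on the other strand is not marked. In those of Onecut3 and Prox1, capitals mark every match with 1 mismatch, with overlapping ones joined. In those of Dlx2 and Onecut1, capitals mark the CG dinucleotides.
Dlx1 intron, chr2:71530604-71530693, minus strand, full match: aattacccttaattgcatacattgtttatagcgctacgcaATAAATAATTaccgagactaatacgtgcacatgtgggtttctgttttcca
Onecut3 upstream, chr10:80470664-80470753, minus strand, overlapping matches on both strands: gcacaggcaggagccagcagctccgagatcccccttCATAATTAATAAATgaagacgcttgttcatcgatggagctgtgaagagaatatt
Prox1 intron, chr1:190138845-190138937, plus strand, overlapping matches on both strands and a further one on the minus strand: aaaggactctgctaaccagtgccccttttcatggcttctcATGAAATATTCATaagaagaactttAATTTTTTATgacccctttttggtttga
Dlx2 upstream of the start, chr2:71546755-71546977, minus strand: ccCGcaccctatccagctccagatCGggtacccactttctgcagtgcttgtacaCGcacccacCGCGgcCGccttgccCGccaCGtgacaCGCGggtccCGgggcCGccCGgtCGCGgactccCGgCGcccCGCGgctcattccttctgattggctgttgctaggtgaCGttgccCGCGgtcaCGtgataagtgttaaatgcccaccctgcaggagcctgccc
Centre of the Onecut1 upstream region, chr9:74854156-74854355, plus strand: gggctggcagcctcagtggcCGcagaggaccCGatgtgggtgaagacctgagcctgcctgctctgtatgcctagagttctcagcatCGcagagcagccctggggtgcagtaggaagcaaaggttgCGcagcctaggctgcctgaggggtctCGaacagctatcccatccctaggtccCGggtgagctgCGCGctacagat

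The stretches from the Dlx1 and Prox1 introns had a GC content of 35.6% and 35.5%, with 4 and 0 CG dinucleotides. The stretch upstream of the Dlx2 start had 67.3% and 23 CG dinucleotides in 223 bases.

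Of the 9 regions, 3 lay over an annotated start of a fate factor gene: 1 in Dlx1, 1 in Dlx2 and 1 in Prox1. Another lay in an intron of Prox1, away from its starts. The other 5 were outside the genes, upstream of Onecut1 and Onecut3 and downstream of Onecut2 (2 regions) and Lhx1. The share of these genes with a region, 7 of 10, stood beside 53.6% of the 21755 protein-coding genes searched the same way, of which 29.7% had 1 region and 15.2% had 2. Of the 7 genes, 4 had 2 regions and 3 had 1, with both Dlx regions counted for each Dlx gene.

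**Figure D1:**
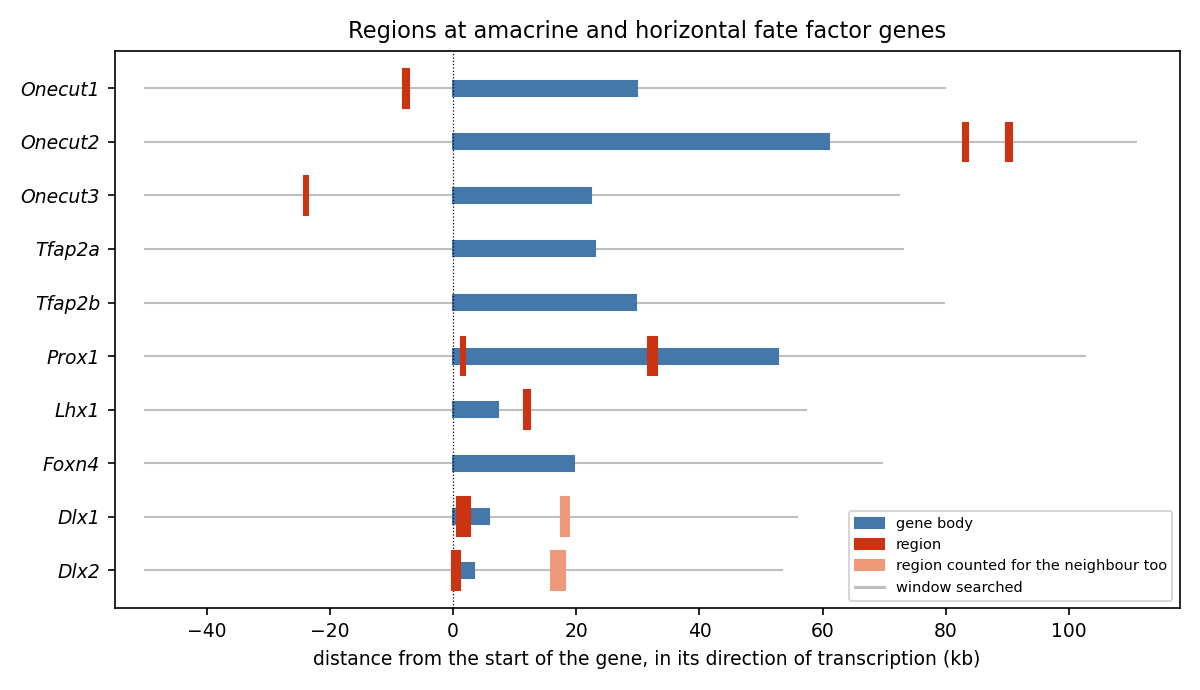
Position of the regions at the 10 genes, in kb from the start of each gene in its direction of transcription (x axis), with a row per gene. Blue bars are gene bodies, grey lines the window of 50 kb on each side, and red bars the 9 regions, of which the pale ones are the Dlx1 and Dlx2 regions repeated on the row of the other gene. The rows of Tfap2a, Tfap2b and Foxn4 hold no region.

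At each of the 9 regions the lower Pou4f1 value exceeded the higher IgG value, an order shared by 96.5% of all regions of the table. The authors called the regions on Pou4f1 signal with IgG as the negative control. This order was thus favoured in advance, and the p-values below are not independent of the calls. The difference passed the threshold, an adjusted p under 0.05 from limma with Benjamini-Hochberg adjustment over all 8038 regions, in 5 of the 9, beside 64.8% of all regions, and 0 were lower. The 5 were the regions upstream of Onecut3, downstream of Lhx1, at the start of Dlx1 and both downstream of Onecut2. At an unadjusted p under 0.05 in the same fit, 6 of the 9 were higher and 0 lower, beside 6135 of 8038 in either direction. No region was filtered out for a low value. The share called was thus near that of the table as a whole.

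The Dlx1 and Dlx2 genes lie tail to tail on chromosome 2, with 9426 bp between them, and each had 1 region at its start and none in the interval between the genes. The Dlx1 region (71528673 to 71530913) was the longest of the 9, at 2241 bp. It starts 560 bp inside the gene (ENSMUSG00000041911.3, 71528113 to 71533981, plus strand), and 5 of the 6 annotated transcript starts fall in it. Of its bases, 1768 are in Dlx1 exons, with 313 coding, and all lie in introns of the antisense gene Dlx1as. Pou4f1 replicate 1 gave a signal of 264 and replicate 2 gave 330.0, whereas the IgG-named library gave 5.27 and the negative control 18.8. Both Pou4f1 values stood far above both IgG values. The region ranked 1530 of 8038 by mean Pou4f1 signal, the highest of the 9. Pou4f1 exceeded IgG by 4.73 on the scale of log2(signal + 1), with a standard error of 0.76 and an adjusted p of 0.0185 by limma. This scale understates the difference where values are low. With column totals as library sizes it was 0.83 and with IgG taken as 4 times shallower 2.85, and neither passed. The column totals are sums over regions called on Pou4f1 signal, so scaling to them removes part of the difference by construction.

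The Dlx2 region (71545700 to 71546977, 1278 bp) covers the start of Dlx2 (ENSMUSG00000023391.8, 71543408 to 71546754, minus strand) and reaches into the sequence upstream of it shown above. Its bases include 1022 in exons, of which 409 are coding. Pou4f1 replicate 1 reached 148 and replicate 2 reached 82.4, while the IgG-named library held 19.1 and the negative control 0. Replicate 2 was the lower of the Pou4f1 values and still stood above both IgG values. The log2 difference of 4.64, with a standard error of 1.78, missed the threshold (limma, adjusted p = 0.0869). By mean Pou4f1 signal it ranked 6177. The neighbouring Dlx genes therefore carried the region of highest Pou4f1 signal and 1 of the 3 lowest among the 9.

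Of the Onecut genes, none had a region over its own body. Onecut3 (ENSMUSG00000045518.8, chromosome 10, 80494835 to 80517276, plus strand) had a single region of 539 bp, the shortest of the 9, at 80470648 to 80471186. It lies 23.6 kb upstream of the gene, in no annotated gene. Here Pou4f1 replicates 1 and 2 gave 172 and 188, and neither IgG library had any signal listed (0 and 0). The replicates were closer here than in any other of the 9 regions, with a ratio of replicate 2 to replicate 1 of 1.10. The log2 difference was 7.50 with a standard error of 0.38 (limma, adjusted p = 0.00222). With IgG at 0 its size is set by the pseudocount, being 10.8 with 0.1 and 4.25 with 10, and no fold is given.

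Downstream of Onecut2 (ENSMUSG00000045991.19, chromosome 18, 64340020 to 64400987, plus strand), 2 regions lie in a stretch with no annotated gene at either, 6.06 kb apart. The nearer one (64422809 to 64423690) is 21.8 kb past the gene end, and the farther one (64429752 to 64430817) is 28.8 kb past it. At the nearer one Pou4f1 replicates 1 and 2 gave 142 and 205, the IgG-named library 6.92 and the negative control 0. At the farther one the same libraries gave, in that order, 163, 245, 10.7 and 0. In both, replicate 2 was the higher Pou4f1 library, by 1.44 and 1.50 times, and the groups did not overlap. On the log2 scale the nearer one differed by 5.93 (SE 1.25) and the farther one by 5.87 (SE 1.47), with limma adjusted p of 0.0315 and 0.0420. The closest coding start to both regions is that of Fech, the ferrochelatase gene of heme synthesis, at 41.1 and 34.0 kb, so the assignment to Onecut2 is by the gene body only.

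Onecut1 (ENSMUSG00000043013.10, chromosome 9, 74861921 to 74891781, plus strand) had 1 region, at 74853775 to 74854735, 7.19 kb upstream. All of its 961 bases lie in an exon of the noncoding gene Gm28182, which is transcribed from the minus strand. They also lie in introns of the noncoding plus-strand genes Gm16551 and Gm20649. The midpoint of the region is 1130 bp from the start of Gm28182. Pou4f1 replicate 1 gave 154 but replicate 2 gave 44.2, and the IgG-named library had 0 but the negative control 29.1. The Pou4f1 replicates differed by 3.49 times, the widest gap of the 9, and replicate 2 stood only 15.1 signal units above the higher IgG library. It had the lowest mean Pou4f1 signal of the 9 (rank 6751) and a log2 difference of 3.93 with a standard error of 2.09 (limma, adjusted p = 0.158).

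Prox1 (ENSMUSG00000010175.13, chromosome 1, 190118035 to 190170714, minus strand) was the only gene of the 10 with regions both at a start and deep in the gene body, 29.6 kb apart. The start region (190168756 to 190169508) does not reach the outermost start, which is 1206 bp upstream of it, but covers an internal start that is used by 1 of the 3 annotated transcripts. All 753 bases of this start region also lie in the antisense gene Gm28172, with 295 in its exons and 237 in those of Prox1. Over the start region, Pou4f1 replicates 1 and 2 gave 149 and 91.0, the IgG-named library 0 and the negative control 17.2. Over the intronic region (190137684 to 190139140) the 4 values were 171, 192, 16.7 and 0 in the same order. The replicates were more alike in the intron than at the start, where replicate 1 was the higher by 1.64 times. Log2 differences were 4.78 (SE 1.72) at the start and 5.44 (SE 1.68) in the intron, with limma adjusted p of 0.0775 and 0.0599, and neither passed the threshold.

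The 1 region counted for Lhx1 (ENSMUSG00000018698.15, chromosome 11, 84518284 to 84525535, minus strand) lies 4.32 kb past the end of the gene, at 84513119 to 84513962, and covers the start of Aatf, which encodes a regulator of transcription and apoptosis. Its midpoint is 18.5 bp from an Aatf start and 12.0 kb from that of Lhx1. Replicates 1 and 2 of Pou4f1 gave 174 and 145 there, against 0 and 0 in IgG. The log2 difference was 7.32 with a standard error of 0.39 (limma, adjusted p = 0.00222), and its size too depends on the pseudocount, from 10.6 with 0.1 to 4.08 with 10. No other region was found within 50 kb of Lhx1. Its start therefore had none of its own.

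Around the 3 genes without a region, the nearest region was 123 kb from Foxn4 (ENSMUSG00000042002.11), 511 kb from Tfap2a (ENSMUSG00000021359.16) and 1652 kb from Tfap2b (ENSMUSG00000025927.13). A gene without a region is one where the peak caller made no call, and the signal below that limit is not in the table. With a window of 100 kb the same 7 genes had a region. Within the window of 50 kb the farthest region was that at 28.8 kb from Onecut2, and the nearest beyond 50 kb lay 59.6 kb from Onecut3, with Pou4f1 values of 116 and 66.9 and IgG values of 13.8 and 29.5. Next came a region 60.7 kb from Onecut1, with 183 and 143 against 11.0 and 7.60.

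**Figure D2:**
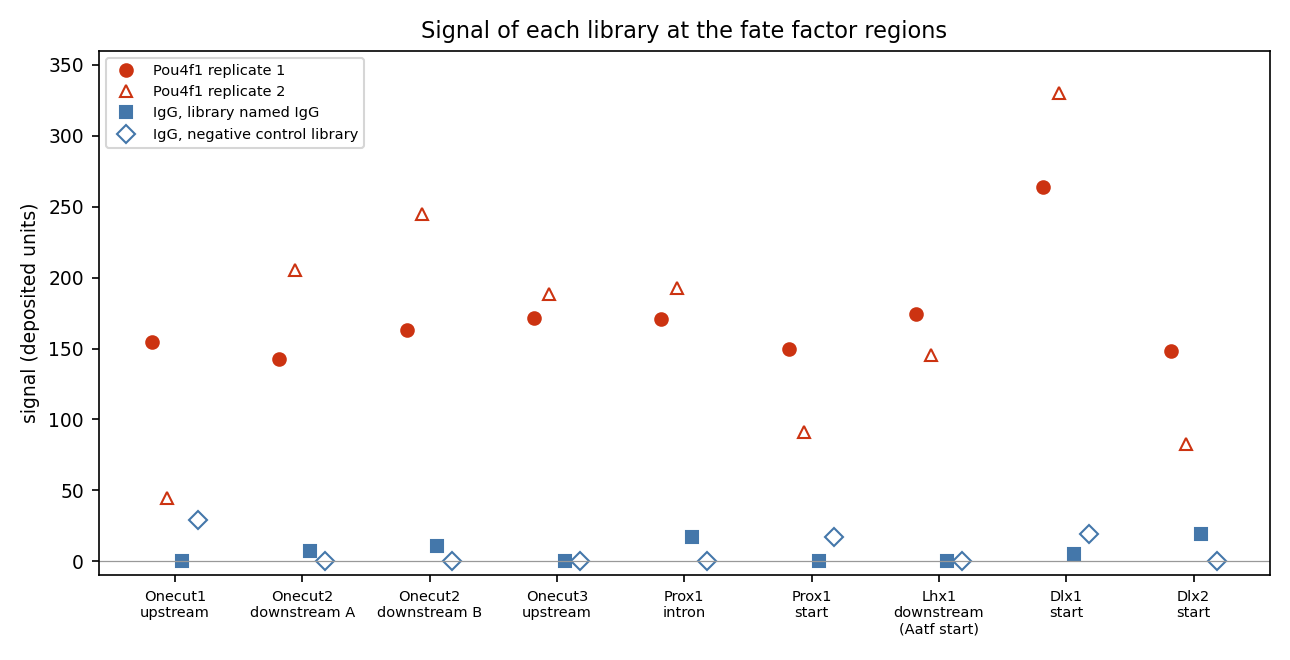
Deposited signal (y axis, linear from 0) of the 2 Pou4f1 libraries (red) and the 2 IgG libraries (blue) in each of the 9 regions, with 1 point per library. The Pou4f1 points lie between 44.2 and 330.0 and the IgG points between 0 and 29.1, and the gap is smallest upstream of Onecut1.

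The median signal over the 9 regions was 163 in Pou4f1 replicate 1 and 188 in replicate 2, beside 184 and 155 over all regions, and 5 of the 9 were at or above the median of all regions by mean Pou4f1 signal. The ratio of replicate 2 to replicate 1 ran from 0.286 upstream of Onecut1 to 1.50 downstream of Onecut2. It went in part with position. Of the 4 regions with a midpoint within 1 kb of any annotated start, replicate 1 was higher in the Dlx2, Prox1 and Lhx1 (Aatf) regions, and replicate 2 in that of Dlx1. Of the 5 farther away, replicate 2 was higher in all but the Onecut1 region. The median ratio was 0.721 and 1.13 in these classes, beside 0.701 and 1.16 in all regions, so the regions at the fate factors split as the table did. With 1 library per replicate this split has no test. GC content differed between the classes too, with medians of 64.0% and 50.2%, beside 62.7% and 49.0% in all regions. Whether the ratio goes with position or with GC content was not tested.

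**Figure D3:**
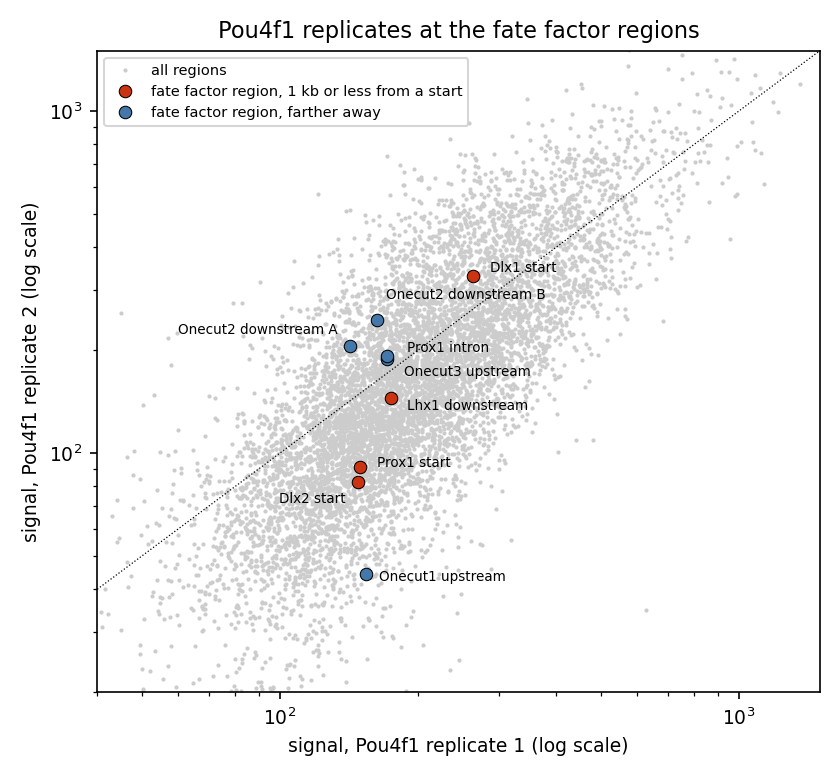
Signal of Pou4f1 replicate 1 (x axis) against replicate 2 (y axis), both on log scales, for all regions (grey) and for the 9 fate factor regions within 1 kb of a start (red) or farther away (blue), with equal values on the dotted line. The axes leave out 91 regions with lower or higher values and 18 at 0 in replicate 2. The Onecut2 regions lie above the line and the Dlx2, Prox1 start and Onecut1 regions below it.

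The 9 regions differed in base composition. GC content ran from 39.3% in the nearer Onecut2 region to 66.0% in the Dlx2 region, with a median of 60.2% beside 59.6% in all regions. The regions near a start and that upstream of Onecut1 held 60.2% to 66.0%, and the other 4 held 39.3% to 53.2%. A full match to the POU-domain consensus, searched on both strands over the whole region, was in 1 of the 9 (11.1%, 95% exact binomial interval 0.281 to 48.2) and in 11.1% of all regions on chromosomes. The match is that in the Dlx1 region shown above, at 71530644 to 71530653 on the minus strand, in an intron of Dlx1 and not at the centre of the region. A long region has more room for a match, and among the 91 regions at least as long as this one 22 held it (24.2%). In the central 200 bp, 0 of the 9 regions held it (interval up to 33.6%), beside 4.38% of all regions. The motif CTCATTAA was in 0 of the 9 and in 3.45% of all regions. With 1 mismatch allowed, a search chosen after seeing the data, 5 of the 9 held the consensus (interval 21.2% to 86.3%), beside 34.4% of all regions. These 5 were both Onecut2 regions, the Onecut3 region, the Prox1 intron and the Dlx1 region. A match is a run of letters, and binding to it was not tested.

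**Figure D4:**
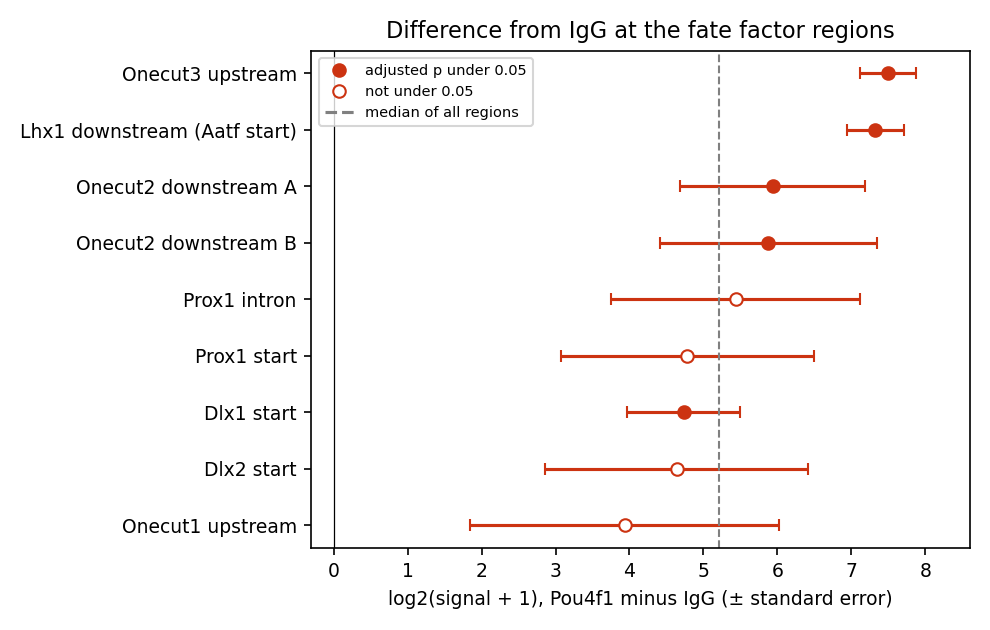
Difference in mean log2(signal + 1) between Pou4f1 (n = 2) and IgG (n = 2) for each of the 9 regions, with bars of 1 standard error from limma. Filled points passed the threshold of an adjusted p under 0.05, and the dashed line is the median of all regions, 5.22. The Onecut3 and Lhx1 (Aatf) regions are at 0 in both IgG libraries and lie farthest right, at positions that depend on the pseudocount.

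The IgG pair moved with the errors. Of the 9 regions, 6 were at 0 in 1 IgG library and above 0 in the other, and 2 of these 6 passed the threshold, beside 39.4% of all regions of that kind. The 2 at 0 in both IgG libraries passed, as did 99.7% of such regions in the table. For 100% of values, signal times region length came out as a whole number of steps (within 0.05), each library having its own step. This step may be the value of 1 read or 1 fragment over 1 base. The mean coverage of the 9 regions was then 3.17 to 5.88 per base in Pou4f1 replicate 1 and 0.723 to 5.40 in replicate 2. On that reading, the IgG value of the nearer Onecut2 region came from 80 covered bases, slightly more than a read of 75 cycles. That of the Dlx1 region in the IgG-named library came from 155. Reads were sequenced in pairs, and whether reads or fragments were counted is not stated. The total depth of the libraries is unknown, so these numbers limit the precision without giving it.

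Leaving out single libraries changed most calls. Without Pou4f1 replicate 1 or without replicate 2, 2 of the 9 regions passed, those of Onecut3 and Lhx1 (Aatf), beside 29.4% and 30.9% of all regions. Only the IgG libraries then give a spread, which is 0 where both are at 0, and the single Pou4f1 library is assumed to vary like them, so these calls say nothing of the Pou4f1 spread. The adjusted p from limma then was 0.289 and 0.290 in the nearer Onecut2 region, 0.317 and 0.312 in the farther one and 0.218 and 0.223 in the Dlx1 region. Over all alternatives these 3 ranged up to 0.541, 0.568 and 0.563. Without the IgG-named library or without the negative control library all 9 passed, as did 94.4% and 95.9% of all regions. The spread then comes from the Pou4f1 libraries alone, with the same standard error of 0.73 in each of the 9. This error is shared between regions. Neither the IgG spread nor the agreement of a region's own Pou4f1 replicates therefore decides these calls. The largest move was that of the Onecut1 region, whose log2 difference was 1.48 without the IgG-named library and 6.39 without the negative control library.

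Lists of related genes were searched in the same way. For comparison, 53.6% of all protein-coding genes had a region, and 64.8% of all regions were higher in Pou4f1 at the threshold. Of 12 paralogues (Tfap2c, Tfap2d, Tfap2e, Prox2, Lhx5, Foxn1, Foxn2, Foxn3, Dlx3, Dlx4, Dlx5 and Dlx6), Tfap2e, Foxn2 and Foxn3 had a region, and 1 of these 3 regions, upstream of Tfap2e at the start of Ncdn, was higher in Pou4f1 at the threshold. In the region of Foxn3, a forkhead gene named here after its values were seen, Pou4f1 gave 60.0 and 7.89 and IgG 71.2 and 23.5, so the groups overlapped, unlike in the 9 fate factor regions. Of 17 other factors of amacrine and horizontal cells, 8 had a region, with 13 regions in all, of which 9 were higher at the threshold and 0 lower. Their median log2 difference was 5.53, beside 5.44 for the 9 fate factor regions and 5.22 for all regions. Nr2f1, a nuclear receptor gene, had 4 regions, and Barhl2, a homeobox gene of amacrine and ganglion cells, and Isl1, a LIM-homeodomain gene, had 2 each.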

How the data were processed

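CUT&Tag libraries of E16.5 wild-type mouse retinas were made by the authors with rabbit anti-Pou4f1 (2), rabbit IgG (2) and rabbit anti-H3K9AC (1, not analysed here). Adaptors were trimmed and low-complexity sequence masked, reads were aligned to mm10 (Bowtie2 2.4.5 in the submitters' processing notes), and SEACR in its relaxed setting called the regions. For each region the authors deposited 1 signal value per library. Its averaging and scaling, and any pooling of replicates for the calls, are not stated in any source used. IgG columns carry no replicate number, and the column named as a negative control was taken as IgG, the only negative control of the study.

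Gene models were those of GENCODE M21, and sequence was read from RefSeq's GRCm38.p6, which is the build of mm10 (10 of 10 RefSeq promoter windows of the genes read identically). Pou4f1 was compared with IgG by limma 3.58.1 (R 4.3.3) on log2(signal + 1) over all 8038 regions, without scaling, covariates or a filter, and with Benjamini-Hochberg adjustment. The fit was also run on simulated data with the same normal spread in every region. Those data lack the uneven spread that IgG values at 0 give, so they do not bear on the single calls. An exact permutation test of 2 against 2 cannot go below a two-sided p of 0.333. The methods call the replicates independent without naming litters, so p-values measure the spread between these libraries only. IgG was also the negative control of the region calls, so these p-values are no independent test of the calls. Motif shares have exact binomial intervals, which cover counting error only. Python 3.11.15, pandas 2.3.3, scipy 1.17.1 and pysam 0.24.0 were used. All 9 regions at the 10 genes are described singly, under a rule that names every region over a start, with the motif or with the highest signal of its gene. The nearer Onecut2 region and the genes Fech, Gm28182, Gm16551, Gm20649, Gm28172 and Dlx1as fall outside that rule and were added after their values were seen. The genes, lists and tests were chosen with earlier results of these data known. Alternatives were the pseudocount, the scaling of IgG, a low-signal filter, a trend of spread, each library left out, the window and the motif search.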

Additional observations from a re-analysis of the deposited data

How the results depend on the processing

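With each change the 9 regions kept a positive difference, and no direction reversed under the 11 alternative fits. Of the 99 single values, 72 stayed on the same side of the threshold, 16 lost it and 11 gained it. The number of regions past the threshold, 5 in the report, was 3 with a pseudocount of 0.1 and 8 with 10, 3 and 2 with IgG taken as 2 and 4 times shallower, and 2 when library sizes were taken from the column totals. In these settings 43.4%, 92.6%, 36.7%, 26.8% and 22.7% of all regions were called. With each library left out in turn the number ran from 2 to 9. Column totals moved the median log2 difference of all regions from 5.22 to 2.74, and 5 of the 9 regions lay above the median of all regions with and without this scaling. These totals are sums over regions called on Pou4f1 signal, so part of this move is built in. Widening the genes by 10 kb gave 6 regions with 2 called, and by 100 kb 17 with 11 called. The nearest coding start was that of a fate factor gene for 6 regions, with 2 called. These counts use the fit of the report, which called 64.8% of all regions higher. By mean Pou4f1 signal, 5 of the 9 were in the upper part. Which region had the smallest difference also changed, from the Onecut1 region in the report. It was the Dlx1 region with a pseudocount of 0.1 (4.87), column totals (0.83), IgG 4 times shallower (2.85) or Pou4f1 replicate 2 left out (4.57). With the negative control library left out it was the Dlx2 region (2.47). A POU match was in 0% of the 9 in the central 200 bp and for CTCATTAA, and in 55.6% with 1 mismatch allowed, a search chosen after seeing the data. No paired analysis was possible because the IgG columns carry no replicate number.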
